A study of Homo sapiens with 6 samples.

Results

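Autophagy, vacuolar proton pump and lysosomal protease genes were described in the human T cell leukaemia line Jurkat, kept in suspension or in collagen. The 67 genes were chosen by a symbol rule that uses no measured values, though it was set with earlier results of these data known. It took measured genes of the vacuolar ATPase (V-ATPase) whose symbols start with ATP6V, numbered ATG genes and cathepsins (CTS and 1 letter). It added 15 named partners such as PIK3C3, ULK1, SQSTM1 and LAMP1. Subunits of the V-ATPase under other symbols were outside the rule. The chosen genes were 67 of 17687 measured genes, each of the 67 read by 1 probe set. RNA was read on 6 Affymetrix arrays, 3 from suspension and 3 from bovine type I collagen (1.7 mg/mL), the 3D group, each after 3 h. The cells were mixed into the collagen before it set for 1 h, and medium was then added for 2 h. Both groups were grown in RPMI with serum, carried no stated genetic change, and came from the same single line, so they stand for that line and not for T cells in general. The labels call the replicates biological and number them 1 to 3 in each group. They do not say whether these were separate cultures, so p-values measure only the spread between these samples, which may be technical.

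Autophagy encloses cytoplasm in a double membrane, the autophagosome, which then fuses with the lysosome. A kinase complex around ULK1 starts the process, a lipid kinase complex around PIK3C3 marks the membrane, lipid transfer proteins feed it, and a pair of ubiquitin-like conjugation systems attach ATG8 proteins such as MAP1LC3B to it. The V-ATPase acidifies the lysosome, where cathepsins cut proteins. Much of this machinery is regulated on the protein, by phosphorylation, cleavage or lipid attachment, which RNA levels do not show.

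Levels are the authors' log2 values, from 1.97 to 13.58 over all arrays, with array medians of 5.55 to 5.64. Levels of different probe sets are not comparable, so levels below are set against the same gene on other arrays. The exception is a common limit of 6 on the mean, which cannot decide whether a gene was expressed. A mean under 6, the limit of a filter used below, held for 18 of the 67 genes, and whether these were expressed is uncertain. All 13 T cell markers listed were measured at means of 6.45 to 11.7, with a median log2 difference of -0.21 whose part in the results was not tested. Of 12 myeloid markers 11 had means under 6, the exception being AIF1 at 11.4. Of 4 B cell markers measured 3 had means under 6, and CD79A had 8.28. Of 7 stromal markers measured 6 had means under 6, and COL1A2 had 7.01. The array medians of the myeloid markers lay between 4.17 and 4.30 in suspension and between 3.90 and 4.47 in 3D. Suspension replicate 1 stood apart from the other arrays, at one end of the first principal component (42.8% of the variance). Results are also given without it for some genes and medians, but not for all that it moved. Precision is limited by there being only 3 arrays a group.

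No gene of the 67 passed the test for a difference between 3D and suspension (limma, Benjamini-Hochberg adjusted over all genes, threshold 0.05), as was so for all genes (0.0% of 17687). The smallest adjusted p among the 67 was 0.380, that of PIK3C3. The median log2 difference was 0.01, with 35 genes higher and 32 lower in 3D, beside a median of -0.02 over all genes, and it ran from -0.06 without suspension replicate 2 to 0.04 without 3D replicate 3. Between arrays of the same number the median of the 67 was 0.04, 0.04 and -0.20 in replicates 1, 2 and 3. Before adjustment, 6 genes of the 67 were higher and 10 lower at p under 0.05, a share of 23.9%, and over all genes the share was 9.87% (5.9% higher and 3.97% lower). That count of 16 was not stable. With each array's trend on gene span removed it was 10, and it ran from 6 without 3D replicate 3 to 17 without 3D replicate 1. The share of all genes in these settings was not counted. The groups did not overlap for 11 genes, 3 higher and 8 lower, which is 16.4% of the 67 and near the background of 16.3% (8.28% higher and 8.03% lower). In all 3 same-numbered pairs 15 genes were higher and 21 lower (22.4% and 31.3%), where 20.3% and 19.8% of all genes were, 40.1% together.

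A block on the replicate number left the count of the 67 at 0, beside 0.0905% of all genes. The labels state no pairs, and the numbers were used as pairs because of correlations in these same data. For number 2 that correlation was only 0.12, and suspension 2 correlated better with 3D 3, at 0.23. When the block was combined with a minimum mean of 6, 14.4% of 8342 genes passed (10.6% higher and 3.78% lower). Of the 67, 49 were tested there and 13 passed, 3 higher and 10 lower. The higher genes were PIK3C3, ATG4C and ATG7. The lower genes were ULK1, ATG101, ATG9A, ATG2A, ATG4D, SQSTM1, ATP6V0C, ATP6V0D1, ATP6V0E2 and CTSG. This filtered fit takes most of its spread from other genes (2 residual and 25.0 prior degrees of freedom), and its counts moved with the pair left out. Without pair 1 there were 2 higher and 3 lower, without pair 2 there were 6 and 6, and without pair 3 there were 2 and 0. ATG4C was the 1 gene called in each of these 3 fits. They had 1 residual degree of freedom each, with 43 prior degrees of freedom without pair 1. Without pair 2 and without pair 3 the prior was infinite, so every gene was given the same spread. The ranges of adjusted p given below cover these fits, so their lower ends can rest on the spread of other genes.

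**Figure D1:**
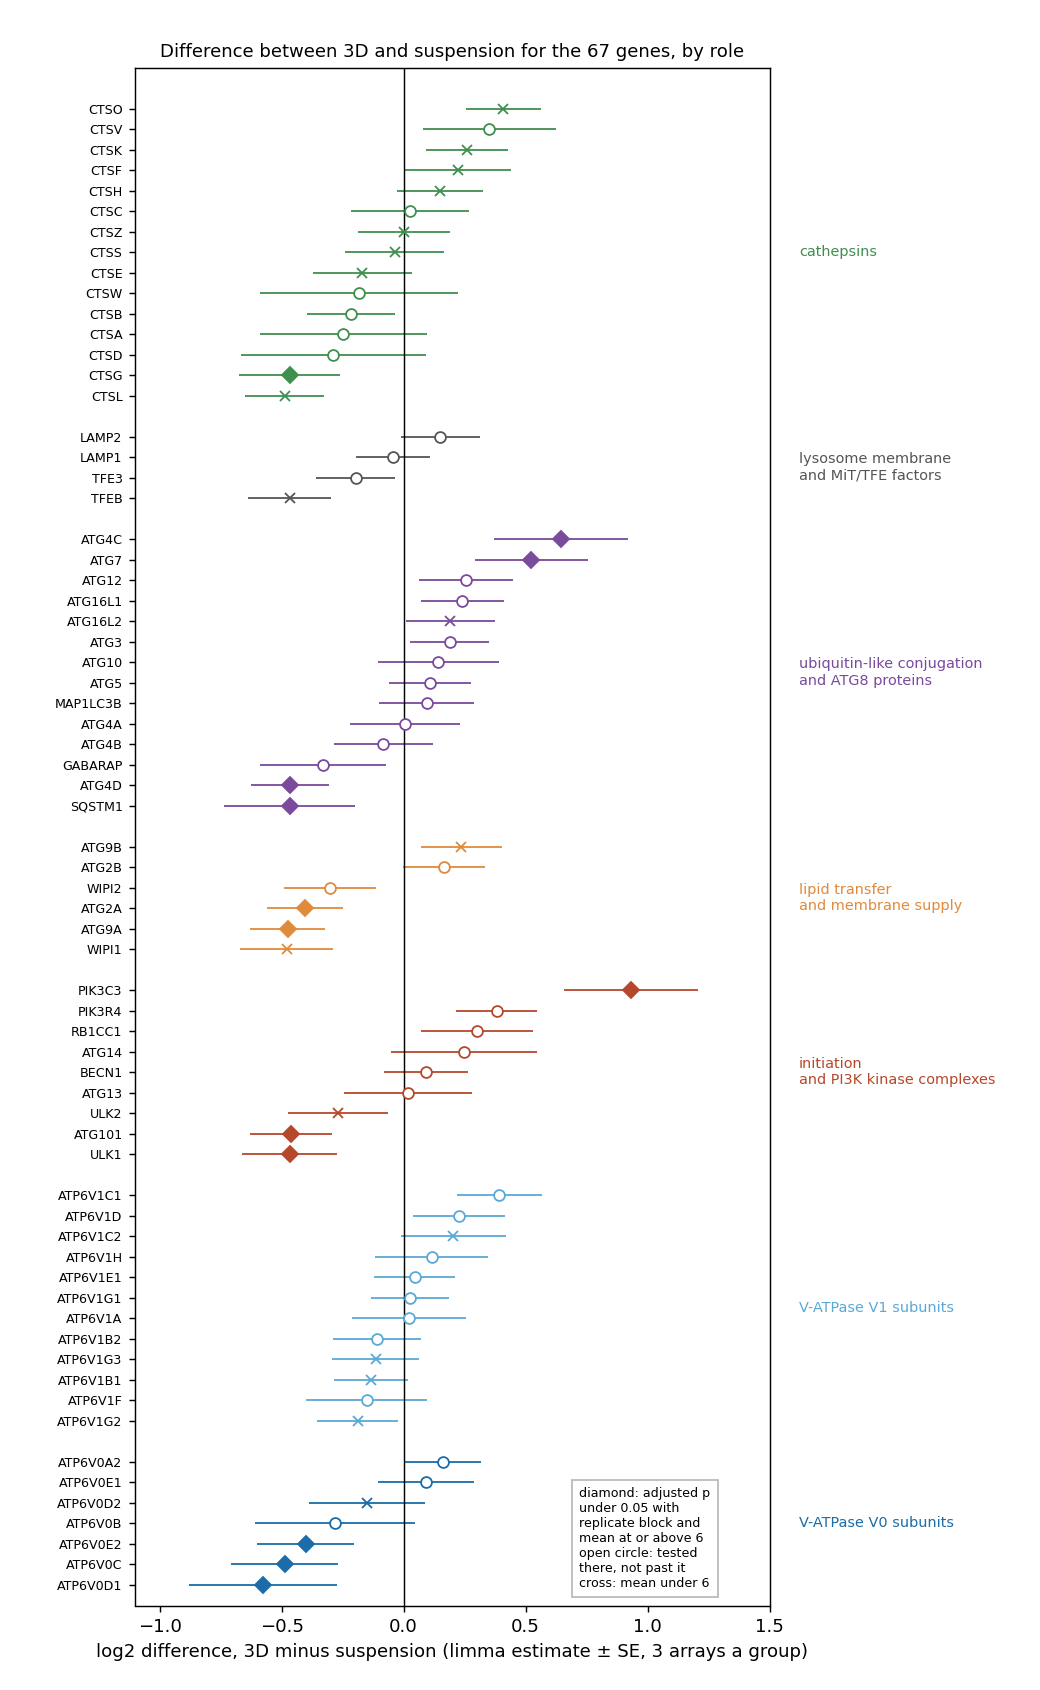
Log2 difference between 3D and suspension (x axis, limma estimate ± SE, 3 arrays a group) of each of the 67 genes (y axis), in 7 role groups. Diamonds mark the 13 genes past an adjusted p of 0.05 with the replicate block among genes of mean at or above 6, and PIK3C3 lies farthest to the right at 0.93.

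The complexes that start autophagosome formation held PIK3C3, which had the highest difference of the 67 genes. Of their 9 genes 6 were higher and 3 lower in 3D, with a median log2 difference of 0.09, and 0 passed without the block. That median ran from -0.03 without 3D replicate 1 to 0.29 without suspension replicate 1, and was 0.16, 0.23 and -0.22 in replicates 1, 2 and 3. PIK3C3, the lipid kinase that makes phosphatidylinositol 3-phosphate, measured 5.38, 6.60 and 6.36 in suspension and 7.16, 7.08 and 6.89 in 3D, in the order of replicates 1, 2 and 3. The 3 values in 3D all lay above the 3 in suspension, and suspension replicate 1 was by far the lowest. The mean was 6.11 in suspension against 7.04 in 3D, a log2 difference of 0.93 ± 0.27 (SE), or 1.91-fold, with a limma adjusted p of 0.380. With the block and the filter the adjusted p was 0.00192, over a range from 3.81e-09 to 0.806 in all settings, the lowest without pair 2, a fit that took its spread wholly from other genes. Without suspension replicate 1 the difference was 0.57.

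PIK3R4, the regulatory subunit that carries PIK3C3, also lay higher in 3D on every array, at 7.17, 6.86 and 6.78 in suspension and 7.43, 7.26 and 7.27 in 3D. Its log2 difference was 0.38 ± 0.17 (SE), with a limma adjusted p of 0.501, and 0.0582 with the block and the filter. The other subunits of that complex overlapped between groups. BECN1, its scaffold, had a difference of 0.09 ± 0.17 (SE), with 8.75, 8.50 and 8.85 in suspension and 8.93, 8.86 and 8.57 in 3D, and ATG14, which directs the complex to autophagosome formation, had 0.25 ± 0.30 (SE).

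ULK1, the kinase that starts the process, measured 7.63, 7.38 and 7.34 in suspension and 7.37, 6.75 and 6.83 in 3D. Each 3D array lay below the suspension array of its number, while 3D replicate 1, at 7.37, lay within the range of suspension. The log2 difference was -0.47 ± 0.20 (SE), or 1.38-fold lower, with a limma adjusted p of 0.495, and 0.0243 with the block and the filter (range 0.0197 to 0.870). ATG101, a stabilising partner in the ULK1 complex, measured 8.01, 8.05 and 8.24 in suspension and 7.86, 7.60 and 7.47 in 3D. All 3 values in 3D lay below those in suspension, a log2 difference of -0.46 ± 0.17 (SE), and the limma adjusted p was 0.427, against 0.0322 with the block and the filter (range 0.0246 to 0.857). The remaining partners overlapped between the groups, with 0.30 ± 0.23 (SE) for RB1CC1, the scaffold also called FIP200, 0.02 ± 0.26 for ATG13, and -0.27 ± 0.20 for ULK2, whose mean lay at 3.67.

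Lipid transfer and membrane supply genes lay mostly lower in 3D. Of 6 genes 4 were lower and 2 higher in 3D, and the median log2 difference was -0.35, with -0.42, -0.22 and -0.34 in replicates 1, 2 and 3. It was -0.24 without suspension replicate 1. ATG9A, a scramblase in the vesicles that seed the autophagosome, measured 7.81, 7.83 and 7.83 in suspension and 7.38, 7.45 and 7.21 in 3D. Its suspension values lay close together, and all 3D values lay below them. The log2 difference was -0.48 ± 0.15 (SE), or 1.39-fold lower, with a limma adjusted p of 0.399, and 0.0207 with the block and the filter (range 0.0149 to 0.814).

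ATG2A, a lipid transfer protein, measured 7.34, 7.17 and 7.28 in suspension and 6.81, 6.76 and 7.00 in 3D, again with no overlap. Its log2 difference was -0.40 ± 0.16 (SE), with a limma adjusted p of 0.448, and 0.0453 with the block and the filter (range 0.0333 to 0.806). Its paralog ATG2B had a difference of 0.16 ± 0.17 (SE) and overlapping groups. WIPI1, which binds the lipid that PIK3C3 makes, measured 6.09, 5.60 and 5.62 in suspension and 5.52, 5.22 and 5.13 in 3D, with every 3D value below every suspension value and a difference of -0.48 ± 0.19 (SE). It did not pass (limma adjusted p 0.466), and its mean of 5.53 kept it out of the filtered fit. WIPI2, which brings the conjugation machinery to the membrane, measured 9.30, 8.77 and 8.92 in suspension and 8.88, 8.70 and 8.50 in 3D, with overlap and a difference of -0.30 ± 0.19 (SE), or -0.15 without suspension replicate 1. ATG9B, at a mean of 3.88, had a difference of 0.24 ± 0.17 (SE).

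**Figure D2:**
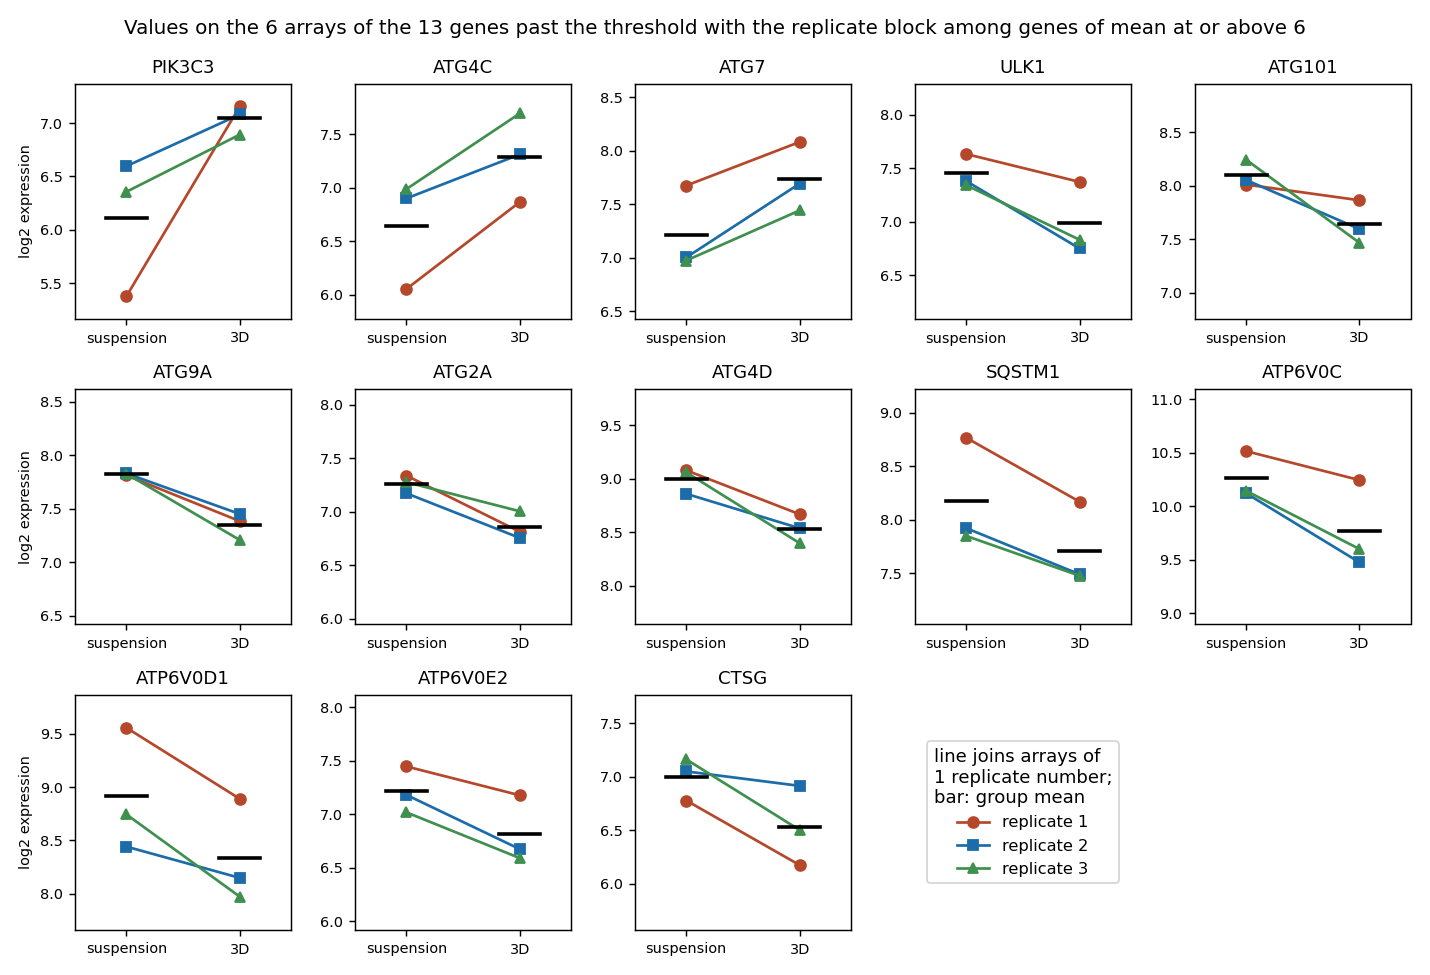
Log2 expression (y axis, the same length of scale in every panel) on the 6 arrays of the 13 genes past an adjusted p of 0.05 with the replicate block among genes of mean at or above 6. Lines join arrays of the same replicate number and bars are group means, and every line of PIK3C3, ATG4C and ATG7 goes up while every line of the other 10 genes goes down.

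Among the 14 genes of ubiquitin-like conjugation, ATG8 proteins and SQSTM1, 10 were higher and 4 lower in 3D, with a median log2 difference of 0.12. The median was 0.22, 0.23 and -0.16 in replicates 1, 2 and 3, and it ran from 0.03 without suspension replicate 1 to 0.20 without suspension replicate 3. The proteases that trim ATG8 proteins, ATG4A to ATG4D, differed among themselves. ATG4D measured 9.08, 8.86 and 9.06 in suspension and 8.67, 8.54 and 8.40 in 3D, with all 3D values below all suspension values. Its log2 difference was -0.47 ± 0.16 (SE), or 1.38-fold lower, with a limma adjusted p of 0.411, and 0.0245 with the block and the filter (range 0.0140 to 0.829). ATG4C measured 6.05, 6.90 and 6.99 in suspension and 6.87, 7.31 and 7.69 in 3D. It was higher in 3D in each pair by 0.41 to 0.81, but both arrays of replicate 1 were the lowest of all 6, so the groups overlapped. The log2 difference of ATG4C was 0.64 ± 0.27 (SE), with a limma adjusted p of 0.496, and 0.00384 with the block and the filter (range 0.000305 to 0.876). Without suspension replicate 1 it was 0.35. ATG4A and ATG4B had differences of 0.01 ± 0.23 (SE) and -0.08 ± 0.20 (SE).

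ATG7, the activating enzyme shared by both conjugation systems, measured 7.67, 7.00 and 6.97 in suspension and 8.08, 7.69 and 7.44 in 3D. Each pair was higher in 3D, yet the groups overlapped because suspension replicate 1 lay above 3D replicate 3. The log2 difference was 0.52 ± 0.23 (SE), or 1.44-fold, with a limma adjusted p of 0.505, and 0.0130 with the block and the filter (range 0.0130 to 0.806). Without suspension replicate 1 the difference was 0.75. The enzymes and substrates after ATG7 did not pass, with 0.19 ± 0.16 (SE) for ATG3, the conjugating enzyme of ATG8 proteins, 0.14 ± 0.25 for ATG10, the conjugating enzyme of ATG12, 0.26 ± 0.19 for ATG12 and 0.11 ± 0.17 for ATG5. ATG16L1, which places the ATG12 conjugate on the membrane, had 0.24 ± 0.17, and ATG16L2 had 0.19 ± 0.18.

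The ATG8 proteins themselves overlapped between groups. GABARAP measured 10.49, 9.91 and 9.87 in suspension and 10.29, 9.68 and 9.31 in 3D, a log2 difference of -0.33 ± 0.26 (SE), and MAP1LC3B, the source of the LC3B protein, had 0.09 ± 0.20 (SE). SQSTM1 encodes p62, a receptor that brings ubiquitin-tagged cargo to the autophagosome and is itself degraded there. It measured 8.77, 7.92 and 7.85 in suspension and 8.17, 7.49 and 7.48 in 3D. Every pair was lower in 3D, while 3D replicate 1 lay above suspension replicates 2 and 3. SQSTM1 had a log2 difference of -0.47 ± 0.27 (SE), or 1.38-fold lower, with a limma adjusted p of 0.581, and 0.0228 with the block and the filter (range 0.0168 to 0.904). Without suspension replicate 1 it was -0.17.

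TFEB and TFE3, transcription factors that switch on lysosomal and autophagy genes, and LAMP1 and LAMP2, the main proteins of the lysosome membrane, had a median log2 difference of -0.12, from -0.18 without suspension replicate 1 to -0.05 without suspension replicate 3. TFEB measured 3.33, 3.34 and 3.78 in suspension and 3.05, 2.97 and 3.02 in 3D, with every 3D value below every suspension value and a difference of -0.47 ± 0.17 (SE). Its limma adjusted p was 0.428, and its mean of 3.25, well under 6, leaves its expression uncertain. TFE3 measured 6.42, 6.52 and 6.73 in suspension and 6.44, 6.41 and 6.23 in 3D, with overlap and a difference of -0.20 ± 0.16 (SE). LAMP2, which also serves as a receptor in chaperone-mediated autophagy, measured 8.61, 8.70 and 8.91 in suspension and 8.82, 8.84 and 9.02 in 3D, a difference of 0.15 ± 0.16 (SE) with overlapping groups. LAMP1 measured 7.81, 7.92 and 8.04 in suspension and 7.89, 7.87 and 7.87 in 3D, a difference of -0.04 ± 0.15 (SE), and without suspension replicate 3 it turned to 0.014.

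Promoters were searched because TFEB and TFE3 bind the palindrome TCACGTGA, the core of the CLEAR element, in lysosomal genes. RefSeq promoters (GRCh38.p14, 250 bases before to 50 after the start site) were held for 53 of the 67 genes. The 8 letters occurred in 5 of these 53 genes, or 9.43%, where 1.67% of 14250 measured genes with a promoter had them. Because the element is described in lysosomal genes, a kind that the symbol rule picks, the higher share is no independent result. The shorter palindrome CACGTG, which every TCACGTGA contains, occurred in 10 of 53 (18.9%), where 10.8% of measured genes had it. Both read the same on either strand. The 5 genes were ATG3, ATP6V1G1, LAMP1, ATP6V0D1 and CTSA, and their sequences from 75 bases before to 25 after the start site are shown with TCACGTGA in capitals.
ATG3 (chr3:112561938-112562037, - strand): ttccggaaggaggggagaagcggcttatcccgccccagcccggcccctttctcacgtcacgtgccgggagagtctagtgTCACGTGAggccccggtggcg
ATP6V1G1 (chr9:114587694-114587793, + strand): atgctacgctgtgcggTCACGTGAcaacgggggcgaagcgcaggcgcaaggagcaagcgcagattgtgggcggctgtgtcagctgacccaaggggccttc
LAMP1 (chr13:113297164-113297263, + strand): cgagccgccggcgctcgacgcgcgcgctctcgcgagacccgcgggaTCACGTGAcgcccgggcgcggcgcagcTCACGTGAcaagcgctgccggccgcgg
ATP6V0D1 (chr16:67481133-67481232, - strand): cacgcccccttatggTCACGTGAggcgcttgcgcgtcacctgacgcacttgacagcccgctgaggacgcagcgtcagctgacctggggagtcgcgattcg
CTSA (chr20:45891260-45891359, + strand): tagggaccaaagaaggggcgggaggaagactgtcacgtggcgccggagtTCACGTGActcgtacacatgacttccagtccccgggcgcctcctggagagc

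Counted from the start site as base 1, the motif began at base 5 in ATG3, at -59 in ATP6V1G1, at -29 and again at -2 in LAMP1, at -60 in ATP6V0D1 and at -26 in CTSA. The log2 differences of these genes between 3D and suspension were 0.19, 0.03, -0.04, -0.58 and -0.25. They lay on both sides of 0, and ATP6V0D1 was the 1 gene of them past the threshold with the block and the filter.

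The V-ATPase has a membrane sector, V0, through which protons pass, and a cytosolic sector, V1, that splits ATP. The 7 V0 genes measured had a median log2 difference of -0.28, with 5 lower and 2 higher in 3D. Their median was -0.27, -0.08 and -0.43 in replicates 1, 2 and 3, and it came to 0.010 without suspension replicate 1, to -0.58 without 3D replicate 1 and to -0.19 without 3D replicate 2. The 12 V1 genes had a median of 0.02, with 7 higher and 5 lower, and the median ran from -0.06 without suspension replicate 2 to 0.07 without 3D replicate 3. No V0 or V1 gene passed without the block, and with the block and the filter 3 of 6 V0 genes passed, all lower, and 0 of 8 V1 genes did, where 14.4% of all genes passed and 3.78% were lower. The difference between the sectors was not tested.

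ATP6V0C, the subunit of the proton-carrying rotor ring, measured 10.52, 10.12 and 10.15 in suspension and 10.25, 9.48 and 9.60 in 3D. Every pair was lower in 3D, and 3D replicate 1 lay above suspension replicates 2 and 3. ATP6V0C had a log2 difference of -0.49 ± 0.22 (SE), or 1.40-fold lower, with a limma adjusted p of 0.505, and 0.0197 with the block and the filter (range 0.0161 to 0.876). ATP6V0D1, the subunit that couples the sectors, measured 9.55, 8.44 and 8.74 in suspension and 8.89, 8.15 and 7.97 in 3D. Both arrays of replicate 1 were the highest, and the groups overlapped although each pair was lower in 3D, by 0.29 to 0.77. Its log2 difference was -0.58 ± 0.30 (SE), or 1.49-fold lower, with a limma adjusted p of 0.552, and 0.00863 with the block and the filter (range 0.000707 to 0.898). Without suspension replicate 1 it was -0.26.

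ATP6V0E2, a small membrane subunit, measured 7.45, 7.18 and 7.02 in suspension and 7.18, 6.67 and 6.59 in 3D, a log2 difference of -0.40 ± 0.20 (SE). Its groups overlapped, with a limma adjusted p of 0.534, and 0.0470 with the block and the filter (range 0.0358 to 0.892). Its paralog ATP6V0E1 measured 11.47, 10.84 and 11.27 in suspension and 11.52, 11.16 and 11.18 in 3D, a difference of 0.09 ± 0.20 (SE). ATP6V0A2, an isoform of the large subunit that guides protons to the ring, measured 8.33, 8.41 and 8.30 in suspension and 8.37, 8.50 and 8.65 in 3D, a difference of 0.16 ± 0.16 (SE). ATP6V0B had -0.28 ± 0.33 (SE) and ATP6V0D2, the isoform known from osteoclasts and kidney, had -0.15 ± 0.24 (SE) at a mean of 3.81. Without suspension replicate 1 the difference of ATP6V0B changed sign, to higher in 3D.

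In the V1 sector ATP6V1C1, a stalk subunit that controls assembly of the sectors, measured 8.19, 8.18 and 8.47 in suspension and 8.67, 8.46 and 8.89 in 3D. Each pair was higher in 3D and the groups just touched, 3D replicate 2 lying below suspension replicate 3. The log2 difference was 0.39 ± 0.17 (SE), with a limma adjusted p of 0.505, and 0.0516 with the block and the filter. ATP6V1D, the central rotor shaft, measured 7.20, 7.64 and 7.78 in suspension and 7.62, 7.75 and 7.93 in 3D, a difference of 0.23 ± 0.19 (SE). The subunits that split ATP, ATP6V1A and ATP6V1B2, had differences of 0.02 ± 0.23 (SE) and -0.11 ± 0.18 (SE). The other V1 genes of mean at or above 6 ran from -0.15 (ATP6V1F) to 0.11 (ATP6V1H), and ATP6V1G1 among them measured 10.03, 9.98 and 10.31 in suspension and 10.09, 10.21 and 10.11 in 3D.

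Isoforms of V1 that are known mainly from kidney, inner ear or neurons had means under 6. ATP6V1B1 had a mean of 4.10, ATP6V1C2 3.69, ATP6V1G2 4.67 and ATP6V1G3 5.03. ATP6V1G2 measured 4.81, 4.53 and 4.95 in suspension and 4.62, 4.52 and 4.59 in 3D, a log2 difference of -0.19 ± 0.16 (SE), and ATP6V1C2 measured 4.07, 3.45 and 3.24 in suspension and 3.93, 3.66 and 3.78 in 3D, a difference of 0.20 ± 0.22 (SE). Both overlapped between the groups, and neither passed, with limma adjusted p of 0.714 and 0.768. ATP6V1B1 did not overlap, every 3D value lying below every suspension value, at a difference of -0.13 ± 0.15 (SE).

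**Figure D3:**
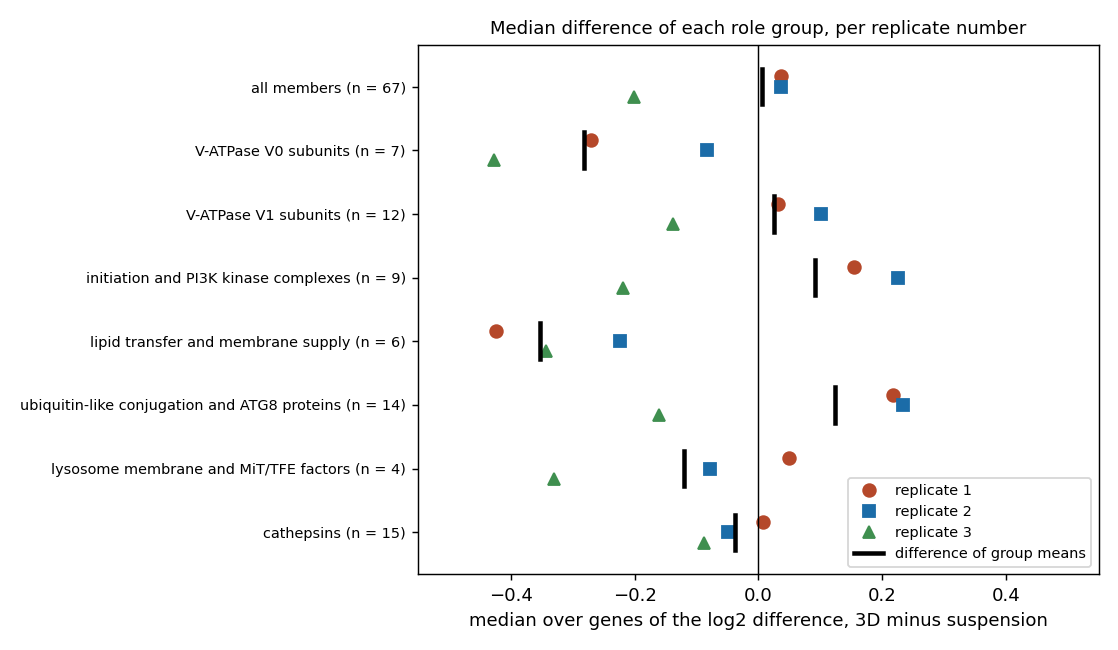
Median over the genes of a role group of the log2 difference between 3D and suspension (x axis), for each replicate number (coloured points) and for the difference of group means (black bars). Lipid transfer and membrane supply genes lay below 0 in each replicate, at -0.42, -0.22 and -0.34, as did V0 genes, while replicate 3 lay below 0 in every role group.

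The 15 cathepsins, proteases that work mostly in the lysosome, had a median log2 difference of -0.04, with 7 higher and 8 lower in 3D. The sign of this median changed with the array left out, from -0.16 without suspension replicate 2 to 0.036 without suspension replicate 1, and over the 7 cathepsins of mean at or above 6 the median was -0.22. None of the 15 passed without the block. CTSL, a cysteine protease that also acts outside the lysosome, measured 4.68, 4.75 and 4.91 in suspension and 4.13, 4.33 and 4.42 in 3D. All 3D values lay below all suspension values, a difference of -0.49 ± 0.16 (SE), with a limma adjusted p of 0.404 and a mean of 4.54. CTSO, a little studied cysteine protease, went the other way, at 5.41, 5.19 and 5.39 in suspension and 5.71, 5.74 and 5.77 in 3D. Its groups did not overlap either, with a difference of 0.41 ± 0.15 (SE), a limma adjusted p of 0.429 and a mean of 5.54.

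CTSG, a serine protease best known from neutrophil granules, measured 6.78, 7.05 and 7.16 in suspension and 6.18, 6.92 and 6.50 in 3D. Each pair was lower in 3D, and 3D replicate 2 lay within the range of suspension. CTSG had a log2 difference of -0.47 ± 0.21 (SE), or 1.38-fold lower, with a limma adjusted p of 0.505, and 0.0285 with the block and the filter (range 0.00326 to 0.870). Without 3D replicate 1 it was -0.29. CTSK, the collagen-cutting protease of osteoclasts, measured 4.89, 5.08 and 4.88 in suspension and 5.18, 5.03 and 5.42 in 3D, a difference of 0.26 ± 0.17 (SE) with overlapping groups and a mean under 6.

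The widely expressed lysosomal cathepsins did not pass either. CTSD, the main aspartic protease, had a log2 difference of -0.29 ± 0.38 (SE), CTSB, a cysteine protease, -0.22 ± 0.18, and CTSA, a carboxypeptidase that also protects other lysosomal enzymes, -0.25 ± 0.34. CTSC, which activates granule serine proteases, measured 11.01, 10.23 and 10.69 in suspension and 11.10, 10.59 and 10.33 in 3D, a difference of 0.03 ± 0.24 (SE), and CTSW, a protease of killer lymphocytes, had -0.18 ± 0.41 (SE). Without suspension replicate 1 the differences of CTSD, CTSA and CTSW changed sign, to higher in 3D. CTSV, a close relative of CTSL, was higher in each pair at 0.35 ± 0.27 (SE), with a limma adjusted p of 0.676. CTSS, CTSH and CTSZ, known from antigen-presenting cells, had means of 4.51, 2.98 and 4.62 and differences of -0.04, 0.15 and 0.00. CTSE and CTSF had -0.17 and 0.22, also at means under 6.

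Differences among the 67 genes went with gene span in RefSeq, as they did over all genes. The 31 genes with a span under the median of all genes (25.9 kb) had a median log2 difference of -0.18, with 11 higher and 20 lower in 3D. The 36 genes of longer span had 0.10, with 24 higher and 12 lower. Over all genes the medians below and above this span were -0.07 and 0.04. Across the 67 genes, which share arrays and are not replicates, the Spearman correlation of span and difference was 0.430, and over all genes it was 0.249. The 3 higher genes of the filtered fit with the block had long spans, 81.4 kb for ATG4C, 133 kb for PIK3C3 and 304 kb for ATG7, while the 10 lower genes ran from 2.73 kb (CTSG) to 43.1 kb (ATP6V0D1). With each array's trend on span removed, a setting added after the values were seen, 11 of these 13 genes still passed with the block and the filter, 3 higher and 8 lower, all but CTSG and ATP6V0E2, where 12.2% of 8338 genes passed (9.2% higher and 3.05% lower).

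**Figure D4:**
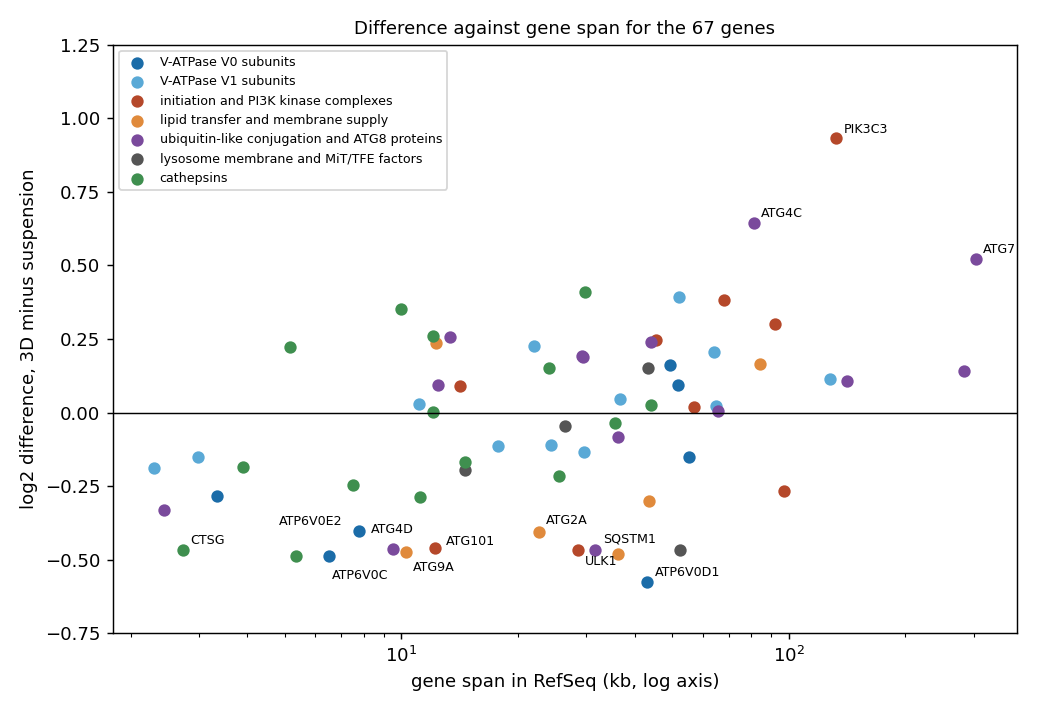
Log2 difference between 3D and suspension (y axis) against the gene span in RefSeq (x axis, kb, log scale) for the 67 genes, coloured by role group, with the 13 genes of the filtered fit with the block named. PIK3C3, ATG4C and ATG7 lie at the upper right and the 10 lower genes lie at 43.1 kb or less.

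Other genes of these pathways, listed by role with earlier results of these data known, did not pass without the block in any list. Among accessory and assembly factors of the V-ATPase 7 of 10 were higher in 3D, with a median log2 difference of 0.17. With the block and the filter 3 of the 9 tested were higher and 0 lower, where 10.6% of all genes were higher and 3.78% lower. DMXL1 and DMXL2, relatives of yeast factors that join V1 to V0, had differences of 0.63 ± 0.20 (SE) and 0.54 ± 0.17 (SE). WDR7, their binding partner and the last gene of that count, had 0.40 ± 0.16 (SE), and none of the 3 overlapped between groups. ATP6AP1 and ROGDI went the other way, also without overlap, at -0.37 ± 0.16 (SE) and -0.27 ± 0.17 (SE). Over all genes 8.28% were higher and 8.03% lower in 3D without overlap.

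Of 21 lysosomal hydrolases other than cathepsins, 17 were lower and 4 higher in 3D, with a median log2 difference of -0.23. With the block and the filter 0 were higher and 1 of the 17 tested was lower, near the 3.78% of all genes. This was GUSB, the beta-glucuronidase gene, at -0.47 ± 0.17 (SE). ASAH1, the acid ceramidase gene, stood on the other side at 0.36 ± 0.15 (SE). The 14 genes of lysosome membrane and sorting had a median of -0.01, with 7 on each side and 0 called, and the smallest p belonged to GNPTAB, which makes the mannose 6-phosphate tag, at 0.30 ± 0.16 (SE), and SLC38A9, an amino acid sensor, at 0.40 ± 0.22 (SE).

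Of 21 genes of mTORC1 signalling at the lysosome, which restrains ULK1 and TFEB when amino acids are plentiful, 8 were higher and 13 lower in 3D (median log2 difference -0.10). With the block and the filter 2 of the 20 tested were higher and 2 lower, where 10.6% and 3.78% of all genes were, so the higher count is near the background. Among them were FNIP1, a partner of folliculin, at 0.52 ± 0.15 (SE), and NPRL3, a subunit that dampens mTORC1, at -0.42 ± 0.17 (SE). In the list of other autophagy regulators and fusion factors 7 of 19 were higher and 12 lower (median -0.06), and 2 of the 16 tested with the block and the filter passed, both higher, which is near the 10.6% of all genes. These were EPG5, a tether between autophagosome and lysosome, at 0.81 ± 0.26 (SE), and STX17, the fusion protein of the autophagosome, at 0.58 ± 0.24 (SE).

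Among 14 other ATG8 proteins and cargo receptors the median log2 difference was 0.02, with 7 on each side and 0 called with the block and the filter. MAP1LC3A had -0.39 ± 0.17 (SE) at a mean of 3.86, and TOLLIP, a cargo receptor, -0.24 ± 0.15 (SE). Cystatins, which inhibit cysteine cathepsins, had a median of 0.13 over 5 genes, with 0.22 ± 0.22 (SE) for CST6 and 0.13 ± 0.18 for CST3. Means of CST6 and CST3 were under 6, at 5.12 and 5.89. The other MiT and FOXO factors had a median of 0.02 over 5 genes, 4 of them of mean under 6. TFEC, a relative of TFEB at a mean of 2.65, had 0.38 ± 0.17 (SE), and FOXO4, at a mean of 4.71, -0.36 ± 0.17. No gene of these lists passed without the block (smallest limma adjusted p 0.392, that of FNIP1).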

How the data were processed

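The GeneChip WT PLUS kit labelled the RNA of all 6 Jurkat samples, per the labels' protocols. The authors deposited log2 values per probe set, 1 column per array, made with RMA and the Transcriptome Analysis Console, per the submitters' processing notes. Tool versions and genome build are not given in the sources used here. In RMA, arrays are background-corrected, quantile-normalized and summarised over probes, which can shrink differences of dim probe sets. There were 0 columns beyond the 6.

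Of 21448 probe sets, 17709 had 1 gene symbol in the platform table, 0 had several and 3739 none. All 17709 matched RefSeq GRCh38.p14 by gene identifier. The highest-mean probe set was kept for 20 genes with several, which left 17687 genes. Of protein-coding genes of the rule, ATP6V0A1, ATP6V0A4 and ATP6V1E2 had no named probe set and were not analysed here.

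Groups and replicate numbers came from the titles. Testing used limma 3.58.1 under R 4.3.3 (lmFit, eBayes) on all genes, two-sided, Benjamini-Hochberg adjusted, with no block and no filter. The fits of all genes, without and with the block, were tried on simulated data, and the filtered fit with the block was not. Deviations from the group means correlated at 0.521, 0.120 and 0.337 between arrays of one number. Each exceeded 0.1, and the numbers were therefore used as pairs, weakly for number 2, since suspension 2 correlated at 0.230 with 3D 3, and suspension 3 at 0.149 with 3D 2. Alternatives covered normalization, centring, a minimum mean of 6, probe set choice, variance moderation, gene span, the replicate block and arrays left out. In each role group up to 4 genes of smallest p were given with their values on every array, most of them with an adjusted p. The gene of highest mean was added, and 2 genes from each related list. WDR7, ATP6AP1 and ROGDI were named beyond that rule. The members, lists and settings were chosen with earlier results of these data known. Plots used matplotlib 3.10.9.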

Additional observations from a re-analysis of the deposited data

How the results depend on the processing

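With 3 arrays a group, no difference of the 67 genes passed without the replicate block under any setting run. Over all genes the count rose from 0 to 16 with the replicate block, and to 1199 with the block and a minimum mean of 6. That combination called 13 of the 67 genes, 11 with the span trend removed (1021 of all genes) and 13 after a further quantile normalization (1216). Without 1 pair it called 2 to 12 of the 67 and 406 to 1457 of all genes, and the block without the filter called 0 to 1 and 21 to 150. By pair 1, 2 and 3 left out, these counts were 5, 12 and 2 of the 67 and 458, 1457 and 406 of all genes with the filter, and 0, 1 and 1 of the 67 and 21, 150 and 36 of all genes without it. The V0 median ran from -0.58 to 0.010 over arrays left out, the lipid transfer median from -0.43 to -0.24, and the cathepsin median ran from -0.16 to 0.036. With a minimum mean of 6, with or without the block, the cathepsin median was -0.22. With the block and that filter it was -0.20 with the span trend removed, -0.27 after quantile normalization, and -0.34, -0.26 and -0.10 without pairs 1, 2 and 3. With the block alone it was -0.11 without pair 2. LAMP1 turned from -0.04 to 0.014 without suspension replicate 3 and to 0.016 with the block without pair 3, with or without the filter. The cause was not tested. For the 28 genes of smallest p given with their values on every array, 536 alternative values stayed on their side, 56 passed the threshold and 3 reversed. The other genes of the 67 were not counted, and some of them reversed too. With the span trend removed ATG13, ATP6V1A and ATG4A turned to -0.016, -0.018 and -0.035, and without suspension replicate 1 CTSD, CTSA, CTSW and ATP6V0B changed sign. These names are not a full list, and ATP6V1F, ATP6V1B2 and MAP1LC3B were among others that changed sign without that array. The span, further quantile and pair-wise settings on the filtered fit with the block were chosen after seeing the data.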

Other observations

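Both arrays of replicate 1, 1 in each group, lay above the other 4 arrays for 17 of the 67 genes (25.4%) and below them for 9 (13.4%). Over all 17687 genes the shares were 14.2% and 10.8%. These genes were picked after their values were seen. CTSW measured 7.53 and 7.76 on the arrays of replicate 1 and 6.24 to 6.59 on the others. CTSD measured 9.09 and 9.18 there and 7.63 to 8.17 on the others. CTSA, at 10.0 on both, ran from 8.62 to 9.15 on the others. For these 3 cathepsins the means of replicate 1 exceeded the means of the other arrays by 1.30, 1.21 and 1.05 on the log2 scale, more than any difference between 3D and suspension among the 67 genes. CTSV and ATG4C were lower on the arrays of replicate 1, by a log2 difference of -0.75 and -0.76.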
